A study of Mus musculus with 7 samples.

Results

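The atrioventricular canal joins the atrium to the ventricle in the looping embryonic heart, and the first valve tissue forms in it. Its transcriptome in normal mouse embryos was described from the 3 wild-type libraries (replicates 2, 3 and 4) among the 7 libraries of a study of the transcription factor HAND2, and libraries of the Hand2 null genotype were not used. Each wild-type library was made from 4 hand-dissected canals pooled from outbred NMRI embryos of 18 to 23 somites, dated from embryonic day 9.0 in the stage label and as day 9.5 in the titles. These pools carried no transgene and no induced deletion, and per the labels they were balanced for somite stage and sex ratio. A planned wild-type pool, replicate 1, was not sequenced because of the quality of its RNA. Total RNA of 30 to 60 ng with integrity numbers of at least 8.5 was freed of ribosomal RNA, converted with a low-input kit, amplified for 8 cycles and read in single 50-nt reads without strand information. Every value below describes 1 group of 3 pools, so it carries a standard deviation (SD) and no p-value (with 3 libraries a two-sided exact sign-flip test cannot go below 0.25).

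The wall of the canal at this stage has an outer layer of slowly conducting myocardium and an inner endocardium, separated by cardiac jelly, a matrix rich in hyaluronan and proteoglycan. Signals of the BMP and TGF-beta families from the canal myocardium, together with Notch signalling in the endocardium, lead endocardial cells to leave their layer and enter the jelly as cushion mesenchyme, a step known as endothelial-to-mesenchymal transition (EndMT). Blood made in the yolk sac already circulates through the tube, so primitive red cells are part of the dissected tissue.

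The libraries held 44860753, 28909205 and 27905601 reads in genes for replicates 2, 3 and 4. Levels are given as CPM (a gene's reads per 1000000 gene reads) when libraries are compared, and as TPM (reads divided by transcript length and scaled to the same total) when genes are compared. Of 23284 genes, 14514 (62.3%) had at least 3 reads in every library and 5482 had none in any. The floor of 3 reads corresponded to 0.0669, 0.104 and 0.108 CPM, and it covers counting error only. Means of at least 100 CPM were reached by 1829 genes and means of at least 1000 CPM by 150. The 10 most abundant genes of a library took 7.85% to 8.24% of its reads. In these bulk samples, fewer cells of a type and less RNA per cell cannot be told apart.

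Replicate 4 stood apart from the others in part of its genes. Of the 9893 genes averaging 5 CPM or more, 366 (3.70%) differed more than 1.5-fold between replicates 2 and 3, 629 (6.36%) between 2 and 4 and 1271 (12.8%) between 3 and 4. Replicate 4 was more than 1.5-fold above both others for 223 genes and more than 1.5-fold below both for 188, against 44 and 147 for replicate 3 and 19 and 31 for replicate 2. The groups of genes in which it differed are described where they come up, with list means also given without it where that moves them.

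Heart muscle transcripts made up the largest share of the lists compared. The 41 genes of the contractile apparatus held 5.67%, 6.0% and 5.35% of gene reads in replicates 2, 3 and 4. Blood followed with 0.966%, 1.33% and 2.26% for 21 erythroid genes, and the shares of the 2 lists did not overlap. Matrix, calcium-handling and transcription factor lists each took about the same share, at 0.341% ± 0.0179, 0.332% ± 0.0430 and 0.326% ± 0.0256 (SD, n = 3). The 45 endocardial and endothelial genes took 0.113% ± 0.00475 and the 23 genes of the cushion mesenchyme and EndMT list 0.198% ± 0.010. The share of the cushion list is not one of mesenchyme alone, as described below. The 188 distinct genes of the signalling lists together took 0.626% ± 0.0349.

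**Figure D1:**
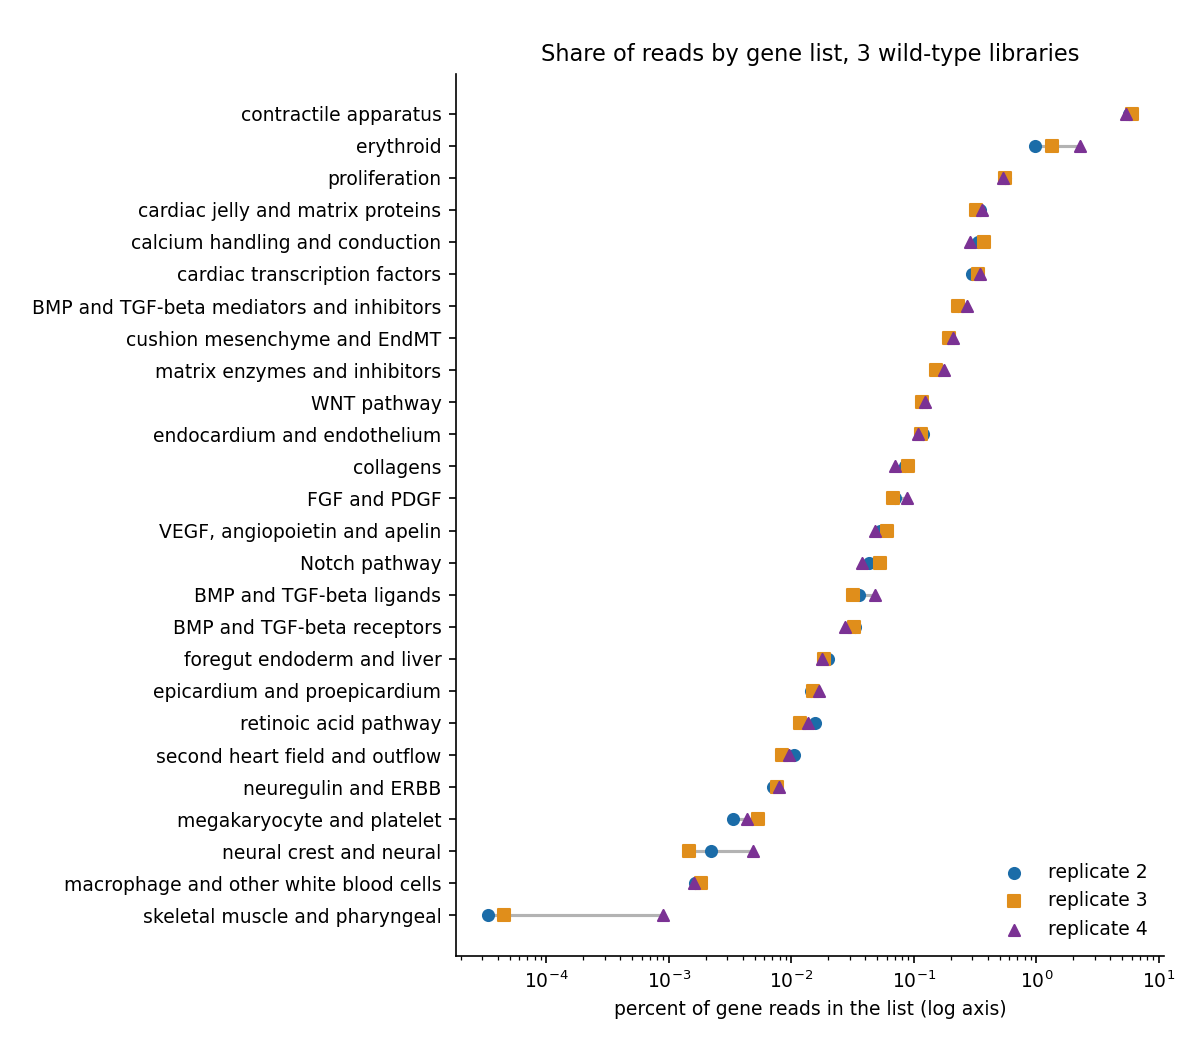
Percent of gene reads held by each gene list (log axis) in wild-type replicates 2, 3 and 4 (circle, square, triangle), with lists ordered by their mean and a grey line from the lowest to the highest library. The contractile list lies highest at 5.35% to 6.0%, and the widest gaps between libraries are those of the skeletal muscle, neural and erythroid lists.

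Myl7, the atrial isoform of the myosin regulatory light chain, was the most abundant transcript of the canal per length. It was counted at 12742, 12602 and 11946 CPM in replicates 2, 3 and 4, and its level of 33820 ± 1010 TPM (SD, n = 3) ranked 1 among 22821 genes with a known length. The libraries nearly coincided, with a coefficient of variation (CV, SD over mean) of 3.42%. Cardiac alpha-actin, Actc1, which forms the thin filament, stood at 10313, 10647 and 8590 CPM and ranked 3 at 10727 TPM. Here replicate 4 was the lowest. Tpm1, the tropomyosin that winds along actin, ranked 8 at 6202 TPM.

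The promoters of the 2 leading muscle genes are shown because both carry a CArG box close to the start, the sequence bound by the serum response factor SRF, a regulator of muscle genes. Each line gives the 100 bases before the RefSeq transcription start in build GRCm38.p6, 5′ to 3′ on the gene's own strand, with the CArG box in capitals. The Myl7 window is chr11:5898783-5898882 on the minus strand and the Actc1 window is chr2:114052876-114052975 on the minus strand. The box lies 61 to 52 bases before the start in Myl7 and 47 to 38 bases before it in Actc1.
Myl7: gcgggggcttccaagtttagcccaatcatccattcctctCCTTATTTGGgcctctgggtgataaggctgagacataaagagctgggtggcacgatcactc
Actc1: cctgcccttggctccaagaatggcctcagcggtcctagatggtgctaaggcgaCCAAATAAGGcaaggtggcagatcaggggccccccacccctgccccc
A CArG box, whose general pattern is its own reverse complement, was present within 250 bases before the start in 7 of the 33 contractile genes with a promoter in the table (21.2%), against 271 of 17131 genes of the files (1.58%). The other 5 were Acta1, Ldb3, Myl3, Myom1 and Nebl, named for the motif and not for their levels. Of the other lists searched, 1 of 10 chamber and canal promoters held it, 1 of 13 erythroid, 1 of 15 cushion and 0 of 23 endocardial and endothelial promoters. A match of letters is a description of the window and does not show binding.

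Among the 41 contractile genes, 39 had at least 3 reads in every library, 27 had a mean of at least 100 CPM and 9 were among the 50 most abundant genes of the canal per length. Their median level was 172 TPM, against 1.07 TPM over all genes. The isoforms present were a mixture of atrial, ventricular and embryonic forms. Of the 4 myosin light chains, Myl7 held 75.6% ± 1.22 by reads per kilobase, the embryonic and atrial Myl4 10.2%, the ventricular Myl3 8.13% and the ventricular regulatory chain Myl2 6.09%. Myl7 thus stood 10.3-fold to 15.2-fold above Myl2 per length in the 3 libraries.

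Both cardiac myosin heavy chains were abundant. The fast alpha chain Myh6 had 794, 1031 and 923 CPM and the slow beta chain Myh7 698, 651 and 651 CPM. Per length, Myh6 took 53.4%, 61.5% and 58.9% of the family and was above Myh7 in each library, by 1.16-fold to 1.61-fold. Cardiac actin made up 75% ± 1.73 of the actins compared, followed by smooth muscle actin Acta2 with 14.2% and skeletal actin Acta1 with 10.8%. Acta2, a gene that early heart muscle also expresses, had 2944 and 2955 CPM in replicates 2 and 3 and 1934 CPM in replicate 4.

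The troponins, which make contraction depend on calcium, were mainly the cardiac and slow skeletal forms. Slow skeletal troponin I, Tnni1, the isoform of embryonic heart, had 2831, 2728 and 2749 CPM, and the cardiac form Tnni3, which replaces it later in life, 821, 728 and 895 CPM. Tnni1 was 2.44-fold to 2.97-fold above Tnni3 per length. The cardiac Tnnt2 held 96.3% of troponin T and Tnnc1 99.7% of troponin C. Fast skeletal forms were detected as small shares. Tnni2 was counted 1081, 850 and 272 times (0.831% of troponin I) and Tnnt3 957, 586 and 620 times (1.10% of troponin T). The little signal of the fast skeletal Tnnc2 cannot be assigned, since 84.6% of its exon bases lie under another gene and the reads carry no strand.

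Calcium handling and conduction genes were led by an exchanger, a store protein and a pump. The sodium-calcium exchanger Slc8a1, which moves calcium out of the cell, had 1033, 1112 and 843 CPM (502 TPM, rank 347). The pump Atp2a2, which returns calcium to the internal store, had 897, 1136 and 750 CPM (331 TPM). Casq1, the calsequestrin of skeletal muscle, had 402, 409 and 373 CPM (343 TPM), against 3.68, 3.70 and 5.73 CPM for the cardiac calsequestrin Casq2, a ratio per length of 144, 146 and 85.8. Casq2 was named for this contrast after its values were seen. Phospholamban, Pln, an inhibitor of the pump, had 165, 163 and 105 CPM, but 59.6% of its exon bases are shared with another gene.

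Of the connexins, which join heart cells electrically, Gja1 made up 58.9% ± 5.92 per length, the slow canal connexin Gjc1 28.8% and the fast chamber connexin Gja5 12.2%. Gjc1 varied least, at 46.3, 47.2 and 49.1 CPM, while Gja5 was at 35.6 and 34.9 CPM in replicates 2 and 3 and at 24.3 CPM in replicate 4. Gjd3, another connexin of slowly conducting tissue, was near the floor at 0.0446, 0.0692 and 0.143 CPM. Over the whole list, 13 of 19 genes with at least 5 CPM were lowest in replicate 4, against 38.4% of all 9893 genes, and the list held 0.354% of reads without that library.

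Cardiac transcription factors were present at moderate levels, with a list median of 22.1 TPM. Ankrd1, a muscle ankyrin-repeat protein with a nuclear role, led at 965, 1317 and 1360 CPM (965 TPM), followed by the homeodomain-only protein Hopx at 207, 167 and 214 CPM (250 TPM). Among the MEF2 factors, which drive muscle genes, Mef2c held 83.3% ± 1.65. Hand1, at 100, 70.9 and 134 CPM, stood above its relative Hand2 in every library, by 2.07-fold to 3.86-fold per length. Hand2, the gene deleted in the study's other genotype, was counted 2123, 1224 and 1194 times, or 47.3, 42.3 and 42.8 CPM, and ranked 3324 at 30.2 TPM. Its CV of 6.25% was below the median of 10.2% for genes between 30 and 100 CPM.

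Within the GATA family the order was Gata6 (148, 156 and 144 CPM), Gata4 (115, 121 and 110 CPM) and Gata5 (45.7, 40.9 and 60.4 CPM). All 3 are activators of heart genes. Per length Gata6 held 48.5% ± 1.66 of the family and Gata4 35.7% ± 1.60, but with coding length in place of transcript length Gata4 was the higher of the pair. Of the 6 T-box factors compared, Tbx5 (42.9% per length) and Tbx20 (37.9%) led, and their order turned when coding length or no length was used. Tbx3 and Tbx2, repressors of the chamber programme in the canal, held 13.6% and 2.72%. Tbx2 was low and steady, at 9.83, 10.1 and 8.39 CPM, whereas Tbx3 ran from 41.9 CPM in replicate 3 and 57.7 CPM in replicate 2 to 97.4 CPM in replicate 4.

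Markers of the neighbouring chambers and of the canal itself were both present, and the balance of the markers chosen differed between the pools. Nppa, which encodes the atrial natriuretic peptide and is a marker of chamber muscle, had 958, 1123 and 466 CPM in replicates 2, 3 and 4, and Nppb, its relative of the same gene pair, 237, 382 and 167 CPM. Replicate 4 was the lowest in both. Their means without it were 1040 and 309 CPM, against 849 ± 342 and 262 ± 110 CPM with it. Of the exon bases of Nppa, 61.5% lie under a predicted gene.

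The 100 bases before each of these starts are shown because these neighbouring genes on chromosome 4 were both lowest in the same pool. Capitals mark TATAAA, a core promoter sequence that positions the transcription machinery. The Nppa window is chr4:148000622-148000721 and the Nppb window is chr4:147985800-147985899, both on the plus strand (RefSeq, GRCm38.p6). The motif lies 9 to 4 bases before the annotated start in Nppa and 31 to 26 bases before it in Nppb.
Nppa: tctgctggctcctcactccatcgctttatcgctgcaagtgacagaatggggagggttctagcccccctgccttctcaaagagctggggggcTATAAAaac
Nppb: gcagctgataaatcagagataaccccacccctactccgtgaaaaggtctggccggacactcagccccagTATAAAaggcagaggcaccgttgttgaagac
TATAAA on either strand was present within 250 bases before the start in 13.1% of the 17131 genes with a promoter, in 8.22% of the genes with at least 3 reads in every library and in 27.0% of those with no read.

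The split into chamber and canal genes was chosen with earlier results of these data known, so the counts below describe the chosen genes only. All 7 chamber genes with at least 5 CPM (Nppa, Nppb, Myl2, Gja5, Cited1, Hey2 and Irx4) were lowest in replicate 4, with a median log2 ratio to the mean of the other libraries of -0.50. Of the 6 canal genes, 5 (Tgfb2, Bmp2, Rspo3, Tbx3 and Msx2) were highest in replicate 4, with a median of 0.75, and Tbx2 was lowest there. Over all 9893 genes, 39.1% were highest and 38.4% lowest in replicate 4, with a median log2 ratio of -0.000599. The 9 chamber genes of the list held 0.261% of reads with all libraries and 0.301% without replicate 4, and the canal genes 0.0459% and 0.0371%. The ratio of Nppa to Tbx3 in reads per kilobase was 93.2, 150 and 26.9. Other genes with chamber isoforms did not all follow the chosen set. Among light chains outside the split, the ventricular Myl3 was even, at 2178.5, 2073 and 2114 CPM. Myl4, at 2757, 2897 and 2388 CPM, and Myl7 were lowest in replicate 4. How much of each pool was chamber muscle taken along at the cut was not tested.

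**Figure D2:**
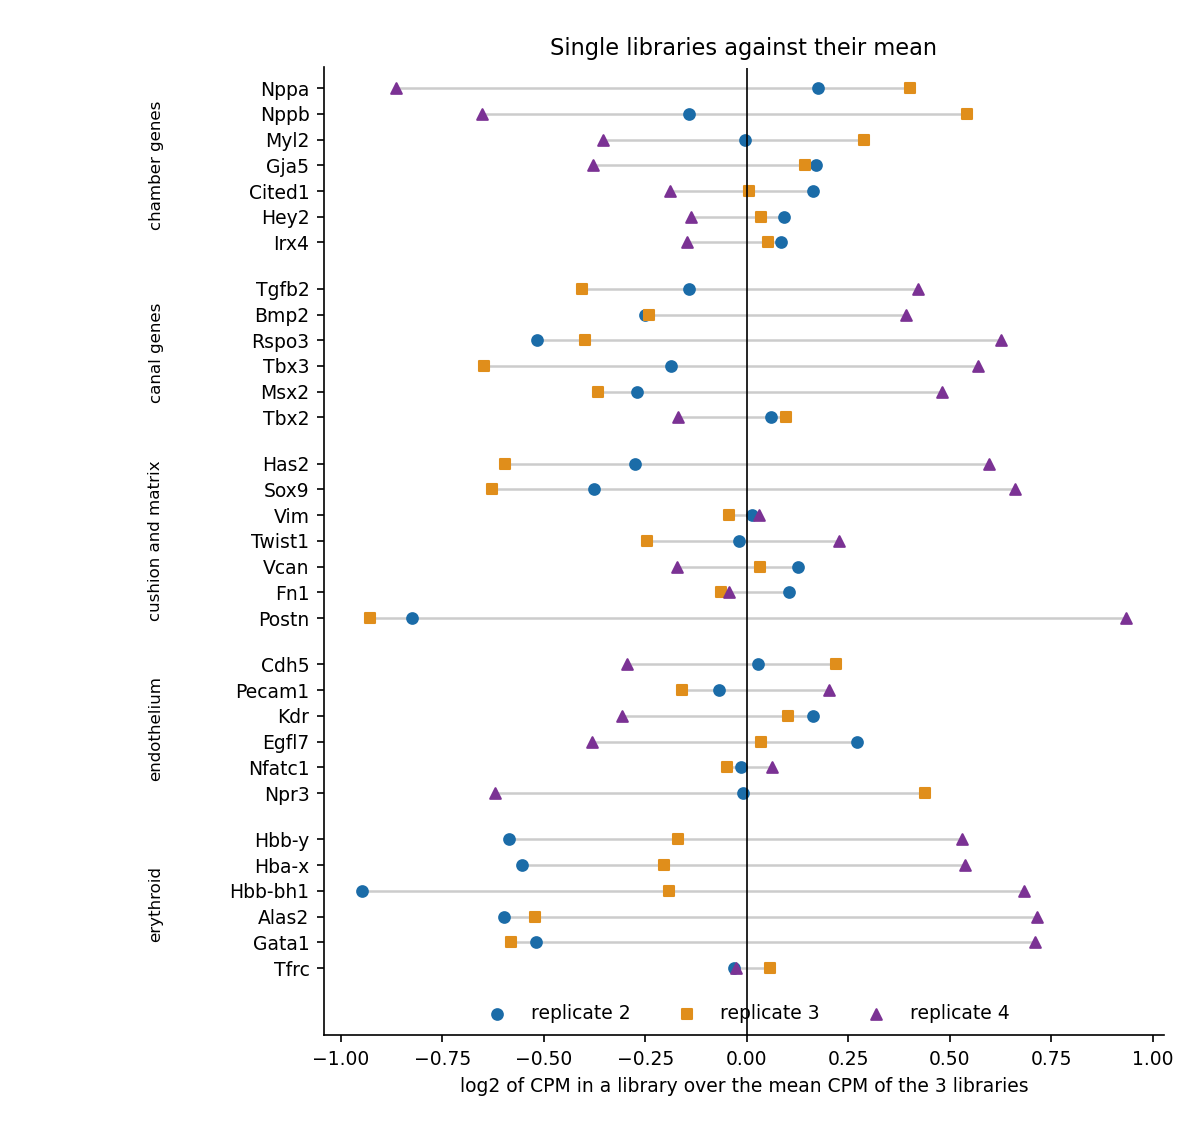
The log2 ratio of each library's CPM to the mean CPM of the 3 wild-type libraries, for chamber, canal, cushion and matrix, endothelial and erythroid genes (circle, square and triangle for replicates 2, 3 and 4; grey line from lowest to highest). Replicate 4 lies left of the others in all 7 chamber genes and right of them in 5 of 6 canal genes and in 5 of the 6 erythroid genes drawn. The chamber and canal genes were chosen with earlier results of these data known.

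The endocardial and endothelial genes were all present and mostly modest in level. All 45 had at least 3 reads in every library, with a median of 8.44 TPM, and none ranked among the 1000 most abundant genes. The receptor component Ramp2 led at 73.7, 57 and 56.2 CPM (85.0 TPM), followed by the secreted vascular protein Egfl7 at 71.3, 60.5 and 45.3 CPM (68.1 TPM). Ecscr, Calcrl and Icam2 came next, at 53.0, 47.1 and 44.4 TPM. Calcrl, the receptor that RAMP2 joins to bind adrenomedullin, had 127, 126 and 176 CPM.

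Defining genes of the layer were measured as well. Cdh5, the endothelial cadherin, had 41.4, 47.2 and 33.0 CPM, and Pecam1 37.9, 35.6 and 45.7 CPM. Nfatc1, a transcription factor of the valve endocardium, was steady at 41.5, 40.5 and 43.8 CPM. These 3 lie outside the naming rule. In reads per kilobase Myl7 was 1807-fold to 2448-fold above Cdh5. Replicate 4 was lowest in 24 of 38 endothelial genes with at least 5 CPM (63.2%, against 38.4% of all genes), with a median log2 ratio of -0.27, yet the list's share of reads differed by only 1.09-fold between the highest and the lowest library.

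Cushion mesenchyme and EndMT genes were all detected, 23 of 23, with a median of 9.27 TPM. The intermediate filament Vim led, at 824, 792 and 833 CPM with a CV of 2.66%. Cdh2, the cadherin of heart muscle and mesenchyme, had 261, 344 and 288 CPM, and Foxp1, a regulator of valve and muscle growth, 118, 133 and 127 CPM. Tbx20, compared above with the other T-box factors of the heart, is also in this list. It averaged 327 to 337 CPM with each library left out in turn. Both Vim and Cdh2 are also made by other cells of the canal, so they do not measure mesenchyme alone. Since Vim held 57.5% of the list's TPM, the same holds for the share of the list. Sox9, needed for the expansion of cushion mesenchyme, was at 90.2 and 75.7 CPM in replicates 2 and 3 and at 185 CPM in replicate 4.

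Among the repressors known to turn off epithelial and endothelial adhesion, Snai1 had 9.10, 7.02 and 12.5 CPM and held 72.2% ± 8.93 of the SNAIL pair per length, above Snai2 at 6.84, 2.21 and 5.38 CPM. Twist1 (19.5, 16.7 and 23.2 CPM) held 91.1% of its pair. Zeb1 had 61.1, 61.5 and 70.7 CPM and Zeb2 27.3, 32.8 and 35.2 CPM, and Zeb1 held 65.2% of the pair per length. Of 17 genes of the list with at least 5 CPM, 11 were highest in replicate 4 (64.7%, against 39.1% of all genes), with a median log2 ratio of 0.21. Postn, a matrix protein of maturing cushions that lies outside the naming rule, was low in replicates 2 and 3 (6.69 and 6.23 CPM) and higher in replicate 4 (22.7 CPM).

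Cardiac jelly genes showed a narrow set of leading members. Sparc, a collagen-binding matrix protein, led at 798, 686 and 815 CPM (901 TPM). The link protein Hapln1, which ties proteoglycan to hyaluronan, had 405, 376 and 516 CPM (122 TPM), fibronectin, Fn1, 445, 396 and 402 CPM (80.1 TPM) and the proteoglycan versican, Vcan, 403, 378 and 328 CPM (47.8 TPM). Hmmr, a hyaluronan-binding protein that also serves in cell division, had 140, 157 and 148 CPM. Vcan and Hapln1 had near-equal read counts in replicates 2 and 3, and Vcan stood at 0.292 to 0.462 of Hapln1 per length.

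Hyaluronan synthase transcripts came almost wholly from a single gene. Has2 held 99.7% ± 0.267 of the 3 synthases, at 76.5, 61.2 and 140 CPM, with replicate 4 the highest and a mean of 68.8 CPM without it. Has1 had 2, 2 and 0 reads, at or under the floor in each library, and Has3 had 10, 8 and 1. Among laminin alpha chains of the basement membrane, Lama4, a chain of vascular and muscle membranes, held 81.6% ± 1.81 and Lama5 11.4%. The list as a whole was even between libraries, with 36 of 39 genes detected.

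Collagens of basement membranes and the cartilage collagen led the collagen list. Col18a1 had 163, 152 and 133 CPM (42.8 TPM), Col4a1 174, 212 and 136 CPM (42.1 TPM) and its partner chain Col4a2 94.1, 97.4 and 61.3 CPM. Col4a1 was 1.81-fold to 2.16-fold above Col4a2 per length. The cartilage collagen Col2a1, which valve mesenchyme also makes, came next at 137, 167 and 82.9 CPM (40.5 TPM). Col3a1 was the first fibrillar collagen after it (13.1 TPM). The median of the 32 collagens was 1.40 TPM, and 28 of them were detected in every library.

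Matrix processing was marked by the machinery of collagen folding. Serpinh1, the collagen chaperone, had 596, 530 and 700 CPM (430 TPM) and P4hb, a subunit of prolyl hydroxylase, 391.5, 354 and 453 CPM (225 TPM). The hydroxylases P4ha1 and P4ha2 followed at 30.1 and 29.3 TPM, beside the cross-linking enzyme Loxl2 at 32.1 TPM. Per length Serpinh1 and P4hb stood above every collagen of the list. P4ha1, P4ha2 and Loxl2 stood below the leading collagens Col18a1, Col4a1 and Col2a1.

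**Figure D3:**
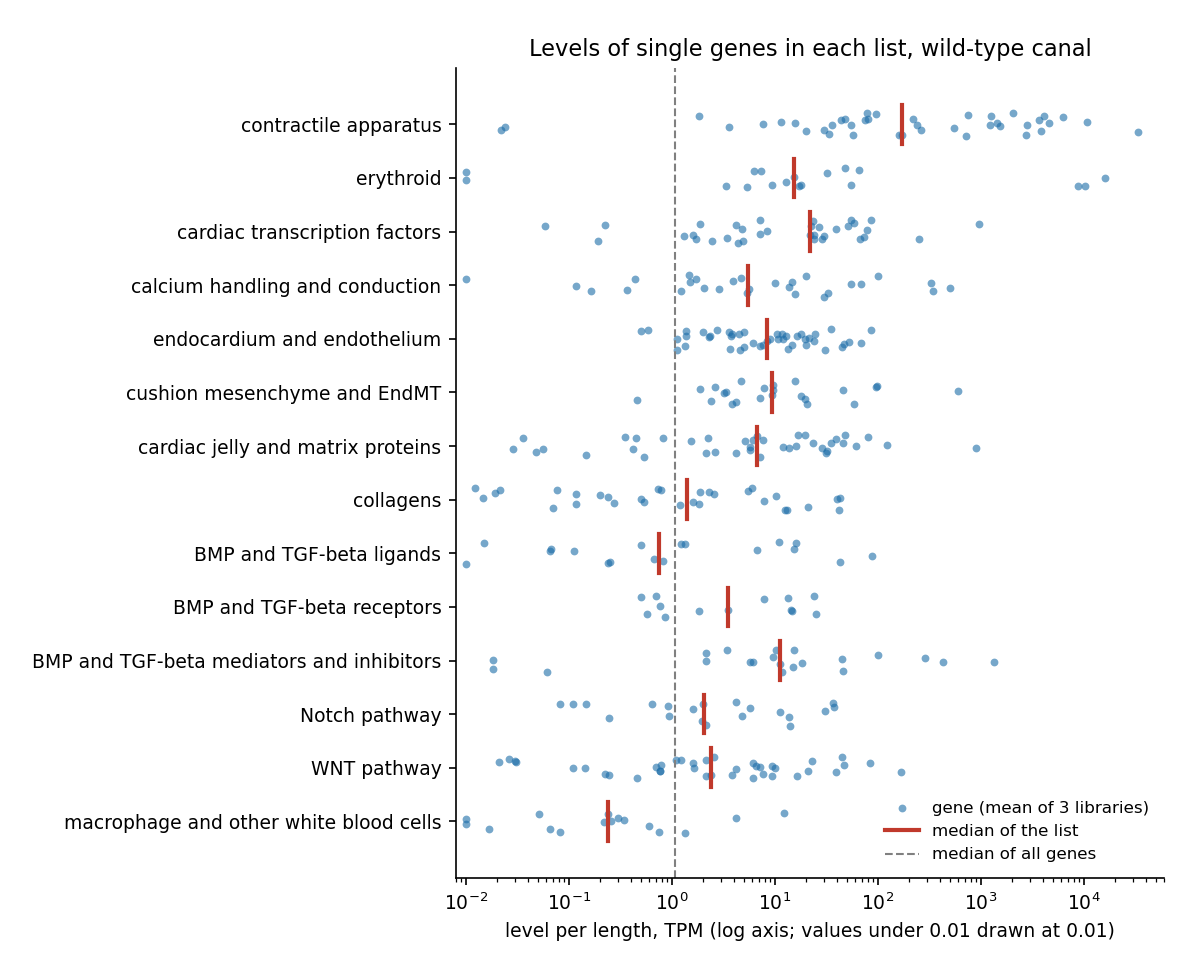
Mean level per length (TPM, log axis) of each gene in 14 lists, 1 point per gene with a known length, with the list median as a red bar and the median of all genes (1.07 TPM) as a dashed line. Contractile genes have the highest median (172 TPM), and the ligand and white blood cell lists have the lowest (0.744 and 0.238 TPM).

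In the BMP and TGF-beta pathway, secreted factors that act through paired receptors and SMAD proteins, the list medians for ligands, receptors and mediators were 0.744, 3.54 and 11.2 TPM. The leading ligands Tgfb2 (88.5 TPM) and Bmp2 (42.4 TPM) nevertheless stood above every receptor per length. Tgfb2 held 98.2% ± 0.20 of the 3 TGF-beta ligands per length, at 173, 144 and 257 CPM. Tgfb3 had 2.32, 2.35 and 3.80 CPM and Tgfb1 0.379, 0.346 and 0.251 CPM. Bmp2, the canal myocardial signal for EndMT, was the leading BMP at 78.7, 79.3 and 123 CPM, with 48.5% ± 7.82 of the 6 BMPs compared. Bmp7, Bmp4 and Bmp5 held 18.8%, 17.7% and 12.6%, and Bmp10, a ligand of trabecular muscle, 1.45%.

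Both leading ligands were highest in replicate 4. Without it their means were 159 and 79.0 CPM. Tgfb2 was above Bmp2 by 1.86-fold to 2.25-fold per length in the 3 libraries. Nodal (1, 0 and 1 reads) was at or under the floor, as was Gdf1, which lies wholly under other genes, so that 0 reads say nothing about it. Bmp5 is uncertain for the same reason, since 49.1% of its exon bases are shared with another gene.

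Among receptors for these ligands, Bmpr1a, a type I BMP receptor, led the list at 97.6, 96.2 and 84.2 CPM, followed by the endothelial co-receptor Eng at 54.7, 46.5 and 52.5 CPM and the TGF-beta type I receptor Tgfbr1 at 60.5, 52.7 and 45.7 CPM. Of the 9 receptors with at least 5 CPM, 6 were lowest in replicate 4 (66.7%, against 38.4% of all genes) and none was highest there. Downstream, the ID proteins, inhibitors of basic helix-loop-helix factors and known BMP targets, were the most abundant members. Id2 had 684, 778 and 952 CPM (1349 TPM, rank 156) and Id3 354, 259 and 407 CPM (429 TPM). Fstl1, a secreted BMP-binding protein, had 647, 624 and 778 CPM (290 TPM), and the shared mediator Smad4 93.8, 124 and 71.2 CPM.

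Notch signalling, in which ligands on a cell activate receptors on its neighbour, was led in CPM by Jag1, the receptor Notch2 and the target Hey2. Per length Hes1, another gene of the list, stood above Notch2. With each library left out in turn, Hes1 averaged 26.6 to 33.1 TPM and Notch2 9.98 to 11.9 TPM. Jag1 held 89.6% ± 2.60 of the 5 ligands per length and was uneven, at 119, 206 and 69.2 CPM with replicate 3 the highest. Dll4, the arterial and endocardial ligand, had 5.06, 6.81 and 2.29 CPM. Notch2 held 57.8% ± 7.47 of the receptors and Notch1, the endocardial receptor, 29.8%. In CPM they stood at 68.0, 63.3 and 86.7 against 35.9, 35.9 and 28.9. The target Hey2, a repressor expressed in ventricular muscle, had 62.6, 60.2 and 53.4 CPM, and Hey1, its atrial counterpart, 18.7, 26.8 and 16.6 CPM.

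The neuregulin pathway, which carries signals from endocardium to muscle through ERBB receptors, was present mainly as the co-receptor. Erbb2 had 43.5, 46.5 and 47.7 CPM and held 95.1% ± 2.15 of the 4 receptors per length. The neuregulin-binding receptors Erbb3 (1.09, 0.692 and 3.26 CPM) and Erbb4 (2.19, 1.97 and 2.11 CPM) were low. Hbegf, an EGF-type ligand, had 16.4, 19.9 and 18.9 CPM (12.4 TPM), and Nrg1 2.52, 2.56 and 3.80 CPM (1.94 TPM). The list held 0.00756% of reads, the lowest share of the signalling lists.

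Among vascular growth factors, Nrp1, the semaphorin and VEGF co-receptor, led at 239, 259 and 237 CPM (109 TPM). Vegfb had 35.1, 33.5 and 24.2 CPM and Vegfa, the ligand that acts on endothelium through KDR, 21.4, 24.3 and 14.9 CPM, or 61.5% and 25.9% of the ligands per length. Kdr held 72.8% ± 1.35 of the 3 receptors, at 52.5, 50.3 and 38.0 CPM. Angpt1, the myocardial ligand of the endothelial receptor TEK, was uneven, at 59.4, 112 and 41.5 CPM, with replicate 3 again the highest. The receptor gene Tek itself had 43.5, 49.7 and 61.1 CPM, with replicate 4 the highest. Of 11 genes of this list with at least 5 CPM, 9 were lowest in replicate 4 (81.8%, against 38.4% of all genes).

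In the FGF and PDGF list the feedback inhibitors Spry2 (411, 404 and 576 CPM, 357 TPM) and Dusp6 (101, 82.5 and 116 CPM, 57.5 TPM) stood above every ligand and receptor per length. Both are known to be induced by FGF signalling. Fgfr2 and Fgfr1 held 47.9% and 38.3% of the FGF receptors per length, and their order was turned by coding length, by no length and by the union of exons, so neither can be taken as the leading receptor. Pdgfra held 70.0% ± 6.73 of its pair. Of the fibroblast growth factors, Fgf13, an intracellular member, was the most abundant at 24.7, 35.2 and 27.3 CPM, and Fgf10 had 11.6, 9.93 and 7.20 CPM. Fgf2, Fgf3, Fgf4, Fgf15, Fgf16 and Fgf17 had at most 3 reads in any library.

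The WNT list was the most even of the signalling lists, with 1.06-fold between its highest and lowest share. Beta-catenin, Ctnnb1, which also serves in cell junctions, led at 368, 414 and 350 CPM (167 TPM). Wnt2, a ligand of the inflow part of the heart, was the leading ligand at 117, 93.2 and 144 CPM (84.1 TPM). The secreted enhancer Rspo3 was at 52.1 and 56.5 CPM in replicates 2 and 3 and at 115 CPM in replicate 4. Wnt3a and Wnt8a were at or under the floor. Retinoic acid genes were low throughout, led by the binding proteins Crabp2 (34.0 TPM) and Crabp1 (29.8 TPM). Crabp1 was highest in replicate 2, at 25.2 CPM against 7.58 and 11.7 CPM.

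**Figure D4:**
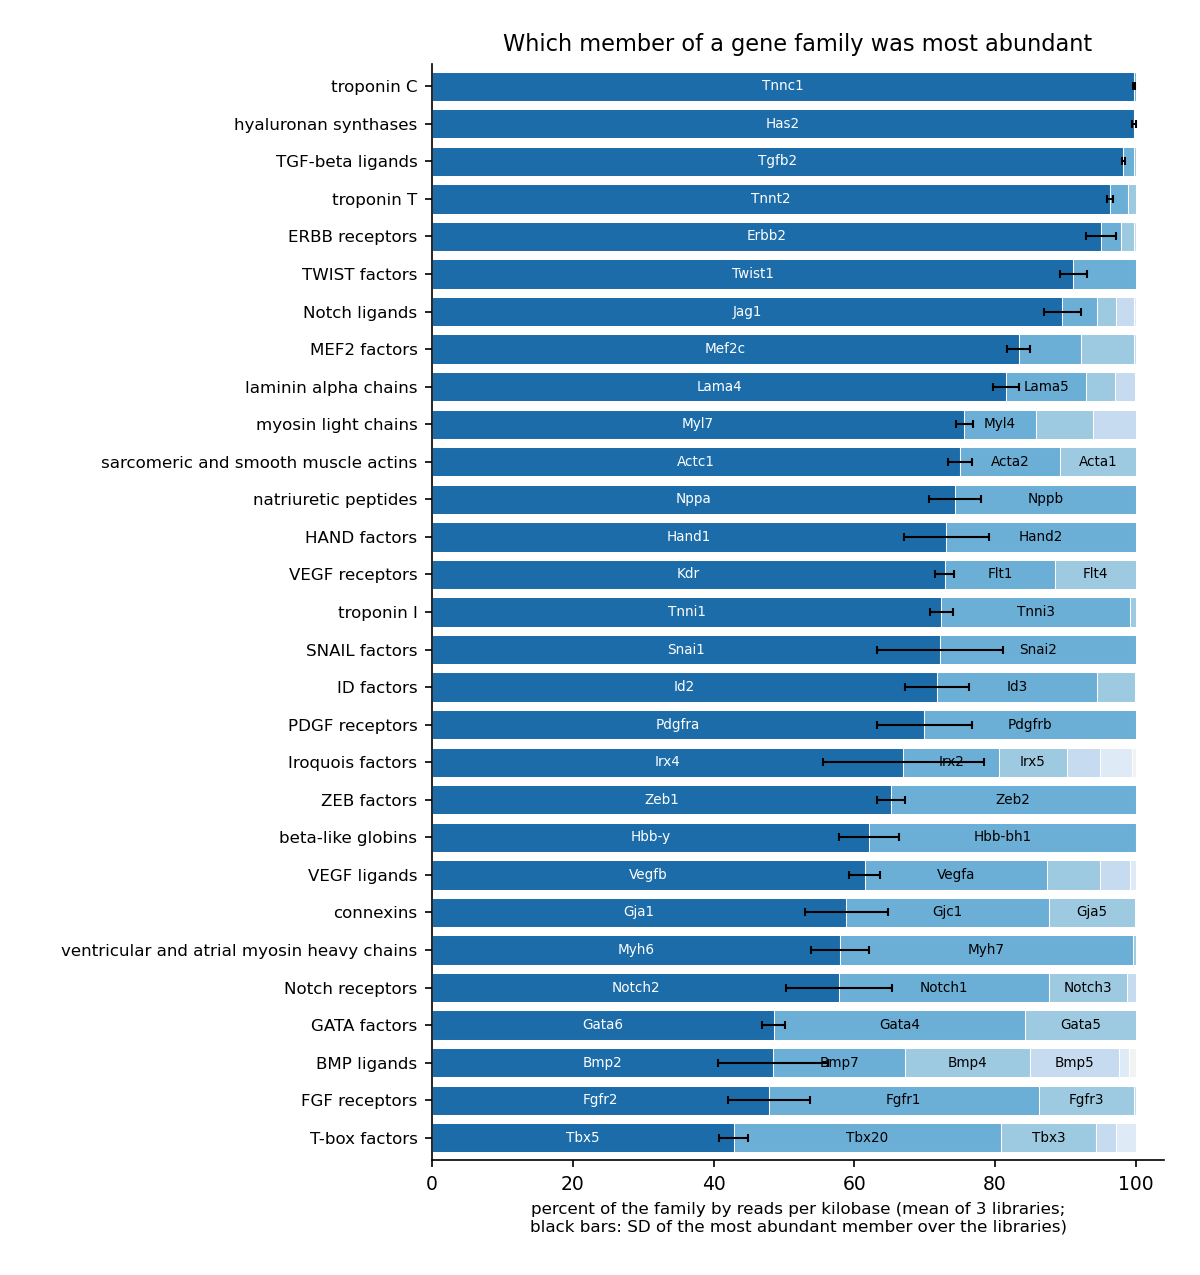
Composition of 29 gene families by reads per kilobase, as the mean percent over the 3 wild-type libraries, with members from left to right in order of abundance and the SD of the leading member as a black bar. Has2, Tgfb2 and Tnnt2 take over 96% of their families, whereas the leading GATA, BMP, FGF receptor and T-box members hold under 49%.

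Blood was present in every pool, and the share of the erythroid list differed 2.33-fold between the highest and the lowest library. The embryonic beta-like globin Hbb-y had 4228, 5643 and 9156 CPM in replicates 2, 3 and 4, its relative Hbb-bh1 2048, 3457 and 6346 CPM and the alpha-like Hba-x 2953, 3763 and 6297 CPM. All 3 were lowest in replicate 2 and highest in replicate 4, and they ranked 2, 4 and 6 of all genes per length. Globins held 0.923%, 1.29% and 2.18% of reads. The ratio of Hbb-y to Hba-x was nearly fixed, at 1.81, 1.90 and 1.84 per length, while that of Hbb-y to Hbb-bh1 was 2.00, 1.58 and 1.40.

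The windows before 2 of these embryonic globin starts are shown as a pair from the alpha-like and beta-like clusters. The Hba-x window is chr11:32276500-32276599 on the plus strand and the Hbb-y window is chr7:103853208-103853307 on the minus strand (RefSeq, GRCm38.p6). Capitals mark TATAAA, which lies 28 to 23 bases before the start of Hba-x and was not found in the Hbb-y window.
Hba-x: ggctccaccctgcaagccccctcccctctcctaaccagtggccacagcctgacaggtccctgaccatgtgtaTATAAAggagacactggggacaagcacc
Hbb-y: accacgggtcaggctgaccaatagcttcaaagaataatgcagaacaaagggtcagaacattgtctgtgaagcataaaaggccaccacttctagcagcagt

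Red cell genes other than globins followed the globins. Alas2, the first enzyme of red cell haem synthesis, had 55.2, 58.3 and 137 CPM, with replicate 4 the highest. The 14 erythroid genes without globins together held 0.043%, 0.046% and 0.075% of reads in replicates 2, 3 and 4. Of 17 erythroid genes with at least 5 CPM, embryonic globins included, 16 were highest in replicate 4 (94.1%, against 39.1% of all genes). The median log2 ratio of the 17 was 0.95, and 12 were more than 1.5-fold above both others. The exception was the transferrin receptor Tfrc, which dividing cells of all kinds express, at 144, 154 and 145 CPM. Without replicate 4 the whole list, mostly globin reads, held 1.15% of reads in place of 1.52%. Adult globins Hba-a1, Hba-a2, Hbb-b1 and Hbb-b2 had 0 reads. The row Beta-s, the adult beta-globin s chain, had 23.1, 27.9 and 53.7 CPM; it was added after its values were seen and is in neither the erythroid list nor the globin family. Adult globin genes exist as near-identical copies, and whether reads of the rows at 0 were set aside as multiple alignments was not tested.

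White blood cell genes were low. Of 17 genes, 9 had at least 3 reads in every library, and the list held 0.00169% of reads. Lyz2, a lysozyme of myeloid cells, led at 10.4, 9.96 and 10 CPM. Fcer1g and Cd68, genes of myeloid cells, had 1.31, 2.04 and 2.04 CPM and 0.914, 0.692 and 0.932 CPM. The complement gene C1qb was counted 16, 21 and 4 times, while C1qa, C1qc, the macrophage gene Emr1 and the lymphocyte gene Cd3e had at most 3 reads in any library. Platelet genes were somewhat higher, with Pf4 at 12.4, 22.7 and 19.0 CPM (49.1 TPM) and Itga2b steady at 4.59, 4.70 and 4.80 CPM.

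Genes of neighbouring tissues gave a view of what else the dissection held. Of 11 epicardial and proepicardial genes 10 were detected, led by the keratin Krt19 (89.2, 85.1 and 89.8 CPM), with Wt1, a transcription factor of the epicardium, at 18.2, 20.7 and 21.2 CPM and Tcf21 at 11.2, 9.31 and 21.0 CPM. The epithelial keratins Krt8 and Krt18, which early heart muscle also makes, reached 81.1 and 84.3 TPM. Of 18 foregut and liver genes 9 were detected. Foxa1, a defining factor of endoderm, had 0 reads in every library and the liver gene Alb at most 1 read. Other genes of this list were low but above the floor. The epithelial claudin Cldn6 had 5.39, 0.726 and 3.05 CPM. The apolipoprotein gene Apoa1 had 1.40, 0.623 and 4.34 CPM and the thyroid hormone carrier Ttr 0.468, 0.484 and 2.62 CPM, both highest in replicate 4.

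Genes of the outflow and the second heart field were mostly low, with 12 of 14 detected and a median of 1.47 TPM. A mean of at least 10 CPM was reached by 3 of them. Mab21l2 led with 43.8% of the list's TPM. Its mean was 27.5 CPM without replicate 4 and 41.4 CPM without replicate 3. Without replicate 4, Sema3c averaged 23.2 CPM and Wnt11 14.9 CPM. Isl1, the defining factor of the second heart field, had 3.52, 5.5 and 2.62 CPM and Tbx1 0.201, 0.0346 and 0.0358 CPM. None of 9 skeletal muscle genes reached 3 reads in every library, and most of their few reads came from replicate 4. Myf5, the first myogenic factor of somites, had 0 and 0 CPM in replicates 2 and 3 and 7.63 CPM in replicate 4, and Myog 0, 0 and 0.753 CPM, while Myod1 and Myf6 had 0 reads in every library. Of 14 neural and neural crest genes, 5 were detected in every library. The neural tubulin Tubb3 was highest in replicate 4, at 16.8, 12.0 and 38.7 CPM, and Pax3 had 0.357, 0.0692 and 2.65 CPM. What these signals contribute to the canal and cushion values of replicate 4 was not tested.

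Sex-linked transcripts of both kinds were present in all pools. Xist, made from the inactive X chromosome, had 48.0, 47.8 and 27.3 CPM, and the Y-linked Eif2s3y 33.0, 35.4 and 49.6 CPM and Ddx3y 35.7, 44.8 and 59.5 CPM. Replicate 4 was lowest in Xist and highest in each of the 4 Y-linked genes of the list. The labels describe the pools as having the same sex ratio, and these levels do not give the number of embryos of each sex.

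The canal held many transcripts of dividing cells. All 22 genes of the proliferation list were detected, with a median of 80.1 TPM and 0.549% ± 0.0164 of reads. The list was led by Cdkn1c, an inhibitor of cell division, at 998, 1296 and 976 CPM and 28.4% of the list's TPM. Its share is thus not one of division genes alone. Beside it stood the nucleotide enzyme Rrm2 (539, 454 and 575 CPM), the replication clamp Pcna (316, 318 and 271 CPM) and the cyclins Ccnb1 (489, 359 and 459 CPM) and Ccnd2 (964, 1009 and 688 CPM). Immediate early genes, which rise within minutes when tissue is handled, were modest, with Ier2 at 30.8, 23.8 and 24.9 CPM and Jun at 34.2, 30.5 and 28.7 CPM.

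The most abundant genes beside muscle and blood were those of general cell function. By mean CPM the highest row of all was Rn45s, the ribosomal RNA precursor, at 16807, 13888 and 10411 CPM. How much ribosomal RNA remained after depletion was not tested. The next rows outside muscle and blood were the cytoplasmic actin Actb (7494, 7896 and 10025 CPM), the mitochondrial leucyl-tRNA synthetase Lars2 (7861, 8061 and 6948 CPM) and, further down, the translation factor Eef1a1 (4323, 4608 and 4895 CPM). Per length Lars2 ranked 38 at 3141 TPM. Whether all reads of the Lars2 row came from its messenger RNA was not tested. The glycolytic genes Aldoa (4721, 4155 and 4414 CPM) and Ldha (3491, 3508 and 4032 CPM) and the mitochondrial ADP carrier Slc25a4 (3421, 3527 and 4056 CPM) were in the same range. Ribosomal protein genes together held 8.88%, 9.57% and 7.77% of reads.

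The median CV of genes with a mean of at least 1 CPM was 13.1%, against 3.80% that counting alone gives, and the common biological CV estimated by edgeR over 13108 genes was 17.6%. The median CV went from 26% between 1 and 3 CPM to 9.04% between 100 and 300 CPM and 9.89% from 1000 CPM on, where counting alone gives 0.457%. Without replicate 4 the biological CV was 14.1%, and without replicate 2 it was 21.0%.

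**Figure D5:**
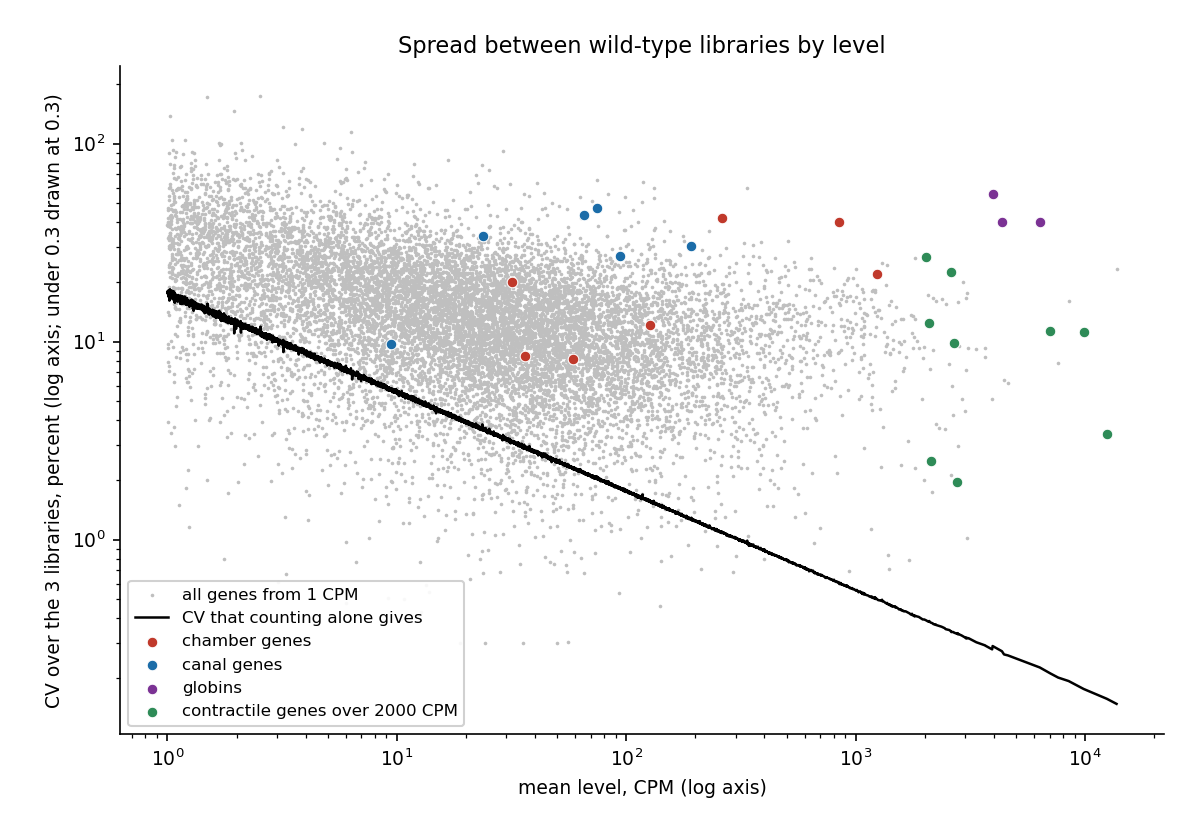
CV over the 3 wild-type libraries (percent, log axis) against mean level (CPM, log axis) for every gene from 1 CPM (grey), with the CV that counting alone gives as a black line and chamber, canal, globin and abundant contractile genes coloured. Globins lie at 40.0% to 55.5%, far above the line, while Myl7 lies at 3.42%.

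Of 3420 genes with a mean of at least 50 CPM, 58 (1.70%) had a CV of 30% or more and 1821 (53.2%) one under 10%. The most variable were Serpinb6b, a protease inhibitor (57, 36.7 and 129 CPM), the uncharacterised AI597468 (47.6, 108 and 198 CPM), the carbonic anhydrase Car2 (201, 240 and 568 CPM) and the adhesion molecule Ncam1 (88.1, 84.7 and 222 CPM). Next came Alas2, Hbb-bh1, the adhesion gene Perp (82.4, 56.4 and 158 CPM), Jag1 and Angpt1. Replicate 4 was the lowest in Jag1 and Angpt1 and the highest in the others named here. The steadiest were the splicing gene Snrnp40 (55.8, 55.9 and 55.6 CPM), Ccdc109a, which encodes the mitochondrial calcium uniporter, Glg1 and Ubn2, the last at 55.4, 54.8 and 54.7 CPM.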

How the data were processed

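The authors deposited whole-number read counts per gene for each library, made with TopHat2 2.0.13, HTSeq and SAMtools on mm9 per the submitters' processing notes; the gene annotation and the settings of the counter are not stated in these notes. The 5 summary rows that name no gene were left out: reads outside genes were 8.79% to 10.0% of counted reads, ambiguous reads 1.61% to 1.67% and multiple alignments 12.2% to 13.8%. CPM was each gene's count over the sum of the 23284 gene rows. TPM used the transcript with the longest coding sequence in a GRCm38 table, so 22821 genes, with 98.0% to 98.7% of reads, had a length. Symbols matched promoters and lengths directly for 20882 genes and by an older name for 1939, and 463 had no match. Means and SDs are over 3 pools, and reads without molecular identifiers are not independent molecules, so floors cover counting error only. The samples formed 1 group, so no comparison was tested and background percentages of called genes do not apply.

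Biological variation was estimated with edgeR 4.0.16 in R 4.3.3, and DESeq2 1.42.0 gave alternative size factors. Other values came from Python 3.11.15 with pandas 2.3.3, numpy 2.4.6, scipy 1.17.1 and matplotlib 3.10.9. The scripts were tested on simulated data. Members, the 29 gene lists and the split into chamber and canal genes were chosen with earlier results of these data known. Genes were named by a rule: Hand2, the 15 highest by TPM and by CPM, the 5 highest of each list by TPM, list members with at most 3 reads in every library, the members of 30 families, and the 10 most and 5 least variable genes from 50 CPM. Casq2, Cdh5, Pecam1, Nfatc1, Postn, Tfrc, Msx2, Ldb3, Myom1, Nebl and Beta-s fall outside the rule and were chosen after their values were seen. Alternatives were other scalings, denominators, filters and lengths, and leaving out each library. A few genes that the rule names are not reported here.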

Additional observations from a re-analysis of the deposited data

How the results depend on the processing

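The share of a gene family held by its most abundant member, averaged over 30 families, was 73.3% with transcript length, 70.5% with coding length and 70.7% with no length correction. It was 74.4% with the union of exons, an alternative chosen after seeing the data. The leading member stayed the same in 27, 28 and 29 of 30 families under these 3 settings. The shares of the 9 lists compared moved by less than 1 SD under the scalings of edgeR and DESeq2, without globin genes and, chosen after seeing the data, without globin genes and Rn45s. Of 247 gene levels, 5 moved by more than 1 SD without globins in the denominator and 13 without globins and Rn45s, while none did under edgeR's or DESeq2's scaling. Leaving out 1 of 3 libraries cannot move a mean by 1 SD, so it is given as values: the contractile share ranged over 5.51% to 5.84%, that of the signalling lists over 0.606% to 0.638% and the erythroid share over 1.15% to 1.79%, lowest without replicate 4. Genes detected numbered 13220 with at least 10 reads, 11831 with at least 1 CPM in every library and 17802 with any read, against 14514. The median CV was 8.91% to 13.6% when each library was left out in turn, lowest without replicate 4. The biological CV ranged over 14.1% to 21.0% in the same way, and it was 19.8% without the filter on low counts. No paired analysis was possible because the 3 pools form 1 group and no comparison between groups was made. Depth limits statements near the floor of 3 reads.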
